A study of Mus musculus with 86 samples.

Results

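Microglia, the resident macrophages of the brain, were set against large peritoneal macrophages (LPM), resident macrophages of the peritoneal cavity, in 4 RNA libraries from untreated C57BL6/J mice. The libraries were chosen by their labels and by the 2 sets they were deposited in. They were 2 of microglia and 2 of LPM, out of 26 RNA libraries and 86 samples in the series. A further untreated C57BL6/J microglia RNA library of the series is in neither set and was not used. The study profiled 5 macrophage populations by RNA-seq and mapped the transcription factor PU.1 and the histone marks H3K4me2 and H3K27ac by ChIP-seq. Each side had 1 library from polyA RNA and 1 from RNA depleted of ribosomal RNA. The labels list no transgene and no treatment for either population, and RNA was taken from cells sorted straight after antibody staining, without cross-linking. The labels give no age, sex or number of animals, and nothing in them says that the 2 libraries of a population came from separate animals. The p-values and ± values rest on a spread shared over 10 untreated C57BL6/J libraries, 2 from each of the 5 populations, with these 4 among them. That spread may be technical.

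Microglia settle in the brain before birth, survey the tissue with motile processes and take up dying cells and synaptic material. Their identity is tied to the transcription factor Sall1 and to TGF-beta, and their survival to the receptor Csf1r. LPM patrol the fluid of the peritoneal cavity, clear apoptotic cells and microbes and help to seal wounds of its lining, and their identity depends on the transcription factor Gata6 and on retinoic acid. PU.1 binds DNA in both and is required for macrophages to form.

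Expression values are reads over the whole transcript span, introns included, which the authors scaled to 10000000 mapped reads, so levels can be compared between samples but not between genes. The polyA and the depleted microglia libraries held 14000000 and 6410000 mapped reads, and the LPM libraries 15000000 and 19500000. Wherever 2 values are given for a population, the polyA library comes before the depleted one.

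The 2 populations differed in 3539 of 19313 genes tested. Calls needed an adjusted p (Benjamini-Hochberg, limma) under 0.05 together with a fold of 1 or more either way, in log2(value + 1) units. Those units shrink the change of a gene with few reads. In microglia 1457 genes were higher (7.54% of those tested) and 2082 lower (10.8%). The 2 microglia values lay wholly above or wholly below the 2 LPM values in 9237 genes (47.8%). The counts rest on few libraries: 551 genes were higher and 824 lower without the polyA LPM library, 660 and 1034 without the depleted LPM library, and 802 and 1442 without the polyA microglia library. With any 1 of the 4 libraries left out, 495 higher and 768 lower genes stayed called, and each gene named below as higher or lower is among these unless the sentence says otherwise. In brackets after the counts of a gene list stand the numbers of its higher and lower genes that kept their calls in this way. The 7.54% and 10.8% over all genes are the background for each such count, and these shares include genes with few reads. With a stricter filter on low values 1384 genes were higher and 2117 lower of 14427 tested, which are larger shares. The median log2 fold of the 10541 genes with a mean of at least 50 was -0.15. The same populations were also measured in untreated NOD/ShiLtJ and SPRET/EiJ mice, with 1 microglia and 1 LPM library per strain, which the fit did not use. Of the 1412 higher genes with a value there, 831 (58.8%) were past log2 1 in the same direction in both strain pairs, against 9.71% of all genes. Of the 2002 lower genes 1151 (57.5%) were, against 9.37%. Past log2 1 the other way in both were 4 higher and 5 lower genes.

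**Figure D1:**
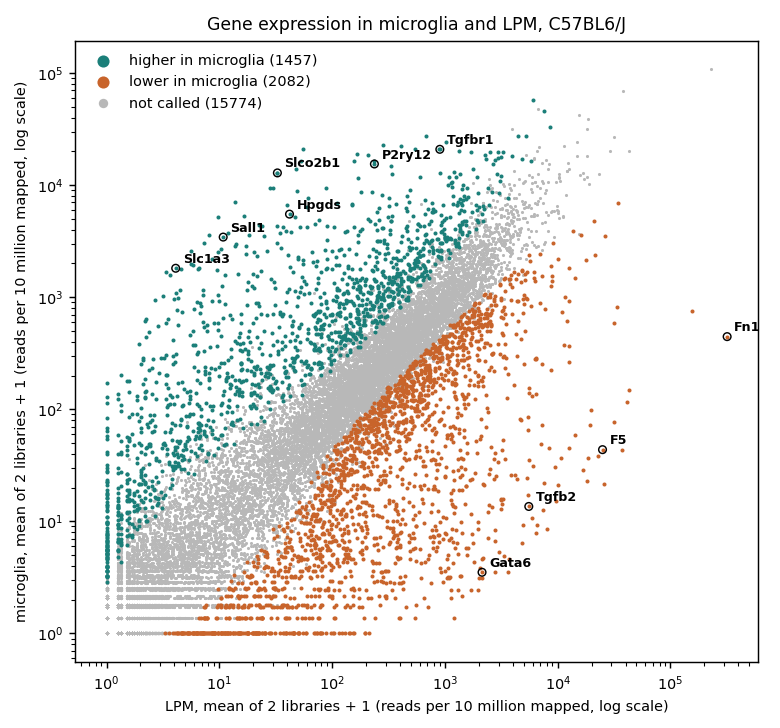
Mean scaled reads per gene in microglia (vertical axis, log scale) against LPM (horizontal axis, log scale) over 2 libraries each, for the 19313 genes tested, with 1 added to each mean. Genes called higher (1457) and lower (2082) in microglia are coloured, genes not called are grey, and 10 of the genes described in the text are labelled.

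The labels were checked against the marker genes. Sall1 stood at 4611 and 2264 in microglia and 14.02 and 5.627 in LPM. The lectin gene Siglech stood at 9293 and 4799 in microglia and 20.7 and 4.604 in LPM. Gata6 stood at 5.017 and 0 in microglia and 2185 and 2086 in LPM. Alox15, a lipoxygenase gene, stood at 84.57 and 0 in microglia and 50320 and 24570 in LPM. All 4 genes went with their labels, and over the full marker lists 17 of 18 microglia markers were higher in microglia and 18 of 18 LPM markers lower. The exception was Csf3r, the receptor of granulocyte colony stimulating factor, at 8299 and 2531 in microglia and 2590 and 1357 in LPM (log2 fold 1.29 ± 0.47, adjusted p = 0.0966). It was called higher in microglia by edgeR on the recovered reads (adjusted p 0.0249 with TMM) and in the fit of the 4 libraries alone (adjusted p 0.0318). The called LPM markers were not at 0 in the polyA microglia library: their median there was 0.229% of the level in the polyA LPM library, and the lowest 0.111%. In the depleted pair the median was 0.0527% and 7 of 18 were at 0. The called microglia markers stood in LPM at a median of 0.304% of their microglia level in the polyA pair and 0.469% in the depleted pair.

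Markers of other cells that a sort could carry over were measured beside these. Of the B cell genes 0 of 7 tested were higher and 5 lower (0 and 1 kept), with summed levels of 167.7 and 60.88 in microglia and 654.3 and 1347 in LPM. Of the mast cell genes 0 of 8 tested were higher and 6 lower (0 and 4 kept), with sums of 15.05 and 7.805 in microglia and 330.5 and 444 in LPM, and Cma1, Tpsb2 and Mcpt4, the granule protease genes, had no read in either microglia library. Of the neutrophil genes 3 of 7 tested were higher and 0 lower (0 and 0 kept), with sums of 356.2 and 87.42 in microglia and 24.04 and 12.79 in LPM. The call of S100a8 was lost without the polyA LPM library (adjusted p = 0.0791), the depleted LPM library (adjusted p = 0.16) or the polyA microglia library (adjusted p = 0.14). That of S100a9 was lost without the polyA LPM library (adjusted p = 0.0771), and that of Camp without the polyA LPM library (adjusted p = 0.135) or the depleted LPM library (adjusted p = 0.0794). Of the dendritic cell genes 1 of 8 tested was higher and 3 lower (0 and 1 kept), with sums of 120.4 and 78.05 in microglia and 236.4 and 202.6 in LPM. Of the endothelial and pericyte genes 1 of 7 tested was higher and 0 lower (1 and 0 kept), with sums of 377 and 266.9 in microglia and 76.78 and 95.15 in LPM. Of the astrocyte and oligodendrocyte genes 2 of 8 tested were higher and 1 lower (1 and 0 kept), with sums of 779.8 and 349.7 in microglia and 797.9 and 738.7 in LPM. Of the neuronal genes 0 of 8 tested were higher and 1 lower (0 and 0 kept), with sums of 36.55 and 57.76 in microglia and 140.2 and 67.52 in LPM. The part of such cells in the differences described here was not tested. Of the eosinophil genes 1 of 5 tested was higher and 1 lower (0 and 0 kept). No gene was called among 8 T and NK cell, 5 erythroid and 8 mesothelial and fibroblast genes, and the sums of the last list were 3.583 and 4.683 in microglia and 4.673 and 6.651 in LPM. These are whole populations of cells, so fewer cells with a transcript and less of it per cell cannot be told apart.

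The genes of largest fold outside the marker lists came from several functions. Adamts1, a secreted metalloprotease gene, stood at 2726 and 2490 in microglia and 8.68 and 0.512 in LPM (log2 fold 9.41 ± 1.118, adjusted p = 0.000308). Slc1a3, which encodes a glutamate transporter best known from astrocytes, stood at 2300 and 1322 in microglia and 4.674 and 1.535 in LPM (log2 fold 8.85 ± 0.64, adjusted p = 1.93e-05). Mgll, whose lipase degrades the endocannabinoid 2-arachidonoylglycerol, stood at 2651 and 894.5 in microglia and 4.006 and 3.069 in LPM (log2 fold 8.42 ± 0.52, adjusted p = 1.08e-05). For all 3 genes each microglia library lay far above each LPM library. The others of the top 15 were Leprel1, a collagen prolyl hydroxylase gene, the chemokine gene Ccl4, the Rac regulator Arhgap22, the ubiquitin ligase subunit Asb2, the channel-like gene Tmc7, the thrombin inhibitor Serpine2, the myosin gene Myo18b, the adhesion receptor Gpr56, the integrin Itgb5, the tetraspanin Upk1b, Fosb and Ecscr, with log2 folds of 7.99 ± 0.76 to 8.96 ± 0.83. On the LPM side, Ltbp1, which stores latent TGF-beta in the matrix, stood at 40.85 and 0 in microglia and 19620 and 31470 in LPM (log2 fold -11.91 ± 1.29, adjusted p = 0.000178). Fibronectin, Fn1, stood at 876.5 and 10.93 in microglia and 448100 and 188200 in LPM (log2 fold -11.47 ± 1.36, adjusted p = 0.00031). Padi4, which turns arginine residues of proteins into citrulline, stood at 28.67 and 0 in microglia and 12230 and 7183 in LPM (log2 fold -10.75 ± 1.07, adjusted p = 0.000113). Both LPM libraries exceeded both microglia libraries for each. The other 12 were the protease inhibitor genes Slpi and Wfdc17, the lysozyme gene Lyz1, the ficolin gene Fcna, Ptgis, the guanine deaminase gene Gda, the pheromone receptor gene Vmn2r26, F10, the LIM protein gene Pdlim1, Gbp2b, Fabp4 and the junction gene Cgnl1, with log2 folds of -10.74 ± 1.25 to -9.64 ± 0.72. Of these 30 genes, 6 had the opposite sign in the SPRET/EiJ pair. The log2 difference there was -1.13 for Myo18b, -0.71 for Upk1b, -1.45 for Fosb, 0.92 for Wfdc17, 0.68 for Vmn2r26 and 0.41 for Cgnl1. Levels there, in microglia and LPM, were 19.13 and 43.16 for Myo18b, 6.596 and 19.68 for Fosb and 16.49 and 8.251 for Wfdc17. They were 26.38 and 19.68 for Cgnl1, 2.638 and 1.269 for Vmn2r26, and 0 and 0.635 for Upk1b. In these 2 libraries 1 read counts 0.6596 and 0.6347, so the signs of Upk1b and Vmn2r26 rest on very few reads. Slc1a3 differed by 1.65 in SPRET/EiJ. Lyz1 and Gbp2b have near-identical paralogs that can share reads, and since the strand is not given, a gene and one that overlaps it on either strand cannot be told apart.

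Receptors for extracellular nucleotides differed member by member. Purines leak from damaged cells, and microglia extend their processes toward them through the ADP receptor P2ry12. Of 20 genes listed, 8 were higher in microglia and 8 lower (5 and 6 kept), with a median log2 fold of -0.46. P2ry12 stood at 14640 and 16230 in microglia and 222.3 and 250.1 in LPM (log2 fold 6.02 ± 0.39, adjusted p = 1.11e-05). Its neighbour P2ry13, another ADP receptor, stood at 3553 and 3592 in microglia and 16.02 and 18.41 in LPM (log2 fold 7.62 ± 0.61, adjusted p = 3.16e-05). The UDP receptor P2ry6 stood at 2933 and 835.2 in microglia and 86.8 and 56.27 in LPM (log2 fold 4.46 ± 0.43, adjusted p = 8.83e-05). All 3 were higher in both microglia libraries, as were the adenosine receptor gene Adora3 (log2 fold 3.35 ± 0.46) and Entpd1, the ectoenzyme CD39 that breaks down ATP and ADP (2.61 ± 0.37). Other receptors of the family went the other way. The ATP and UTP receptor P2ry2 stood at 12.9 and 1.561 in microglia and 427.3 and 264.5 in LPM (log2 fold -5.82 ± 0.58, adjusted p = 0.000112). The ADP receptor P2ry1 stood at 2.867 and 0 in microglia and 94.81 and 88.5 in LPM (log2 fold -5.56 ± 0.58, adjusted p = 0.000142). The UDP-glucose receptor P2ry14 stood at 7.884 and 12.49 in microglia and 233.7 and 289 in LPM (log2 fold -4.58 ± 0.36, adjusted p = 2.82e-05). Microglia had low values for each in both libraries. Nt5e, the ectoenzyme CD73 that makes adenosine from AMP, stood at 11.47 and 28.1 in microglia and 1741 and 1307 in LPM (log2 fold -6.31 ± 0.77, adjusted p = 0.000367), and Adk, the kinase that removes adenosine inside the cell, had a log2 fold of -2.83 ± 0.31. CD39 and CD73 act in sequence on the same nucleotides, and their genes were higher in opposite populations. The ATP-gated ion channel gene P2rx4 was not called, at 1087 and 366.9 in microglia and 1329 and 716.7 in LPM. P2rx7, of the same family, was not called either, at 3143 and 1200 in microglia and 1050 and 658.9 in LPM.

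**Figure D2:**
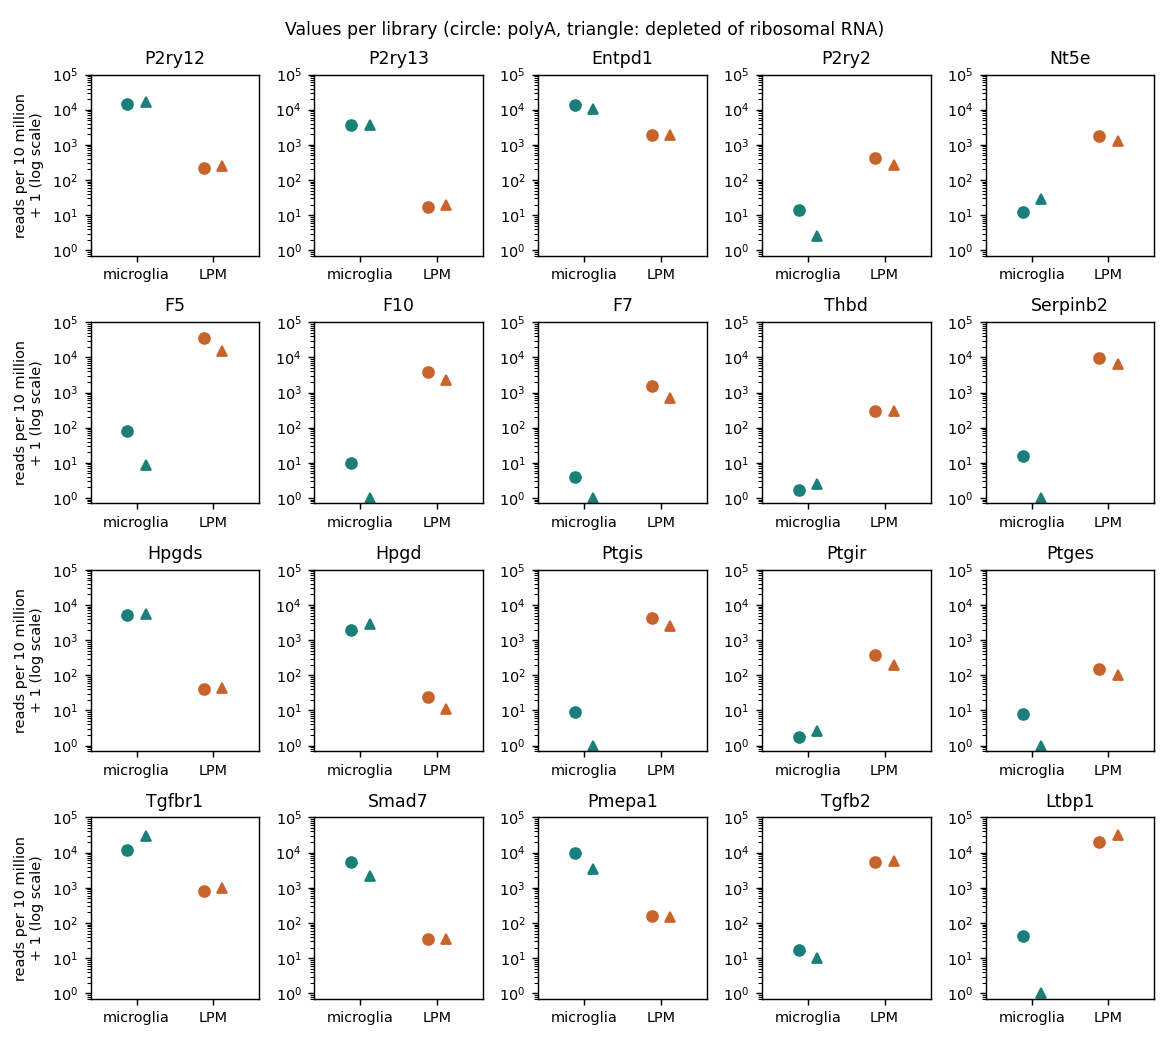
Scaled reads in each of the 4 libraries (vertical axes, log scale, 1 added) for 20 genes of nucleotide sensing, clotting, lipid mediators and TGF-beta signalling; in each panel microglia points stand left of LPM points, circles are polyA libraries and triangles depleted libraries. Only called genes whose microglia and LPM points do not overlap were drawn. Over all genes tested, 47.8% do not overlap.

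More ion channel genes were higher than lower in microglia. Of 24 genes listed, 8 were higher in microglia and 1 lower (3 and 0 kept), with a median log2 fold of 0.65. Kcnma1, the large-conductance calcium-activated potassium channel, stood at 3116 and 2649 in microglia and 13.35 and 18.93 in LPM (log2 fold 7.41 ± 0.60, adjusted p = 3.37e-05). The background potassium channel family gene Kcnk12 stood at 1001 and 263.8 in microglia and 2.003 and 3.069 in LPM (log2 fold 7.20 ± 0.80, adjusted p = 0.000196). The cation channel gene Trpv2 stood at 1215 and 409 in microglia and 136.9 and 91.56 in LPM (log2 fold 2.64 ± 0.39, adjusted p = 0.00118). The microglia values of all 3 exceeded the LPM values in both library kinds. The voltage-gated potassium channel gene Kcna3, at 35.12 and 54.64 in microglia and 1.335 and 5.115 in LPM, was called (log2 fold 3.57 ± 0.97) but lost its call without the polyA LPM library (adjusted p = 0.287), the depleted LPM library (adjusted p = 0.128), the polyA microglia library (adjusted p = 0.171) or the depleted microglia library (adjusted p = 0.149). Of the wider potassium channel family 12 of 84 tested were higher and 6 lower (7 and 1 kept). Kcnn3, a small-conductance calcium-activated channel gene, was lower, at 10.03 and 4.683 in microglia and 669.7 and 878.8 in LPM (log2 fold -6.60 ± 1.10), a call that was lost without the polyA LPM library (adjusted p = 0.0772) or the depleted microglia library (adjusted p = 0.068). Of the receptors for transmitters and hormones 4 of 23 tested were higher and 3 lower (2 and 2 kept). The endothelin receptor gene Ednrb had 50.89 and 20.29 in microglia and 20830 and 16100 in LPM (log2 fold -9.11 ± 0.39, adjusted p = 5.31e-06), so LPM exceeded microglia by a wide margin. Vipr1, a receptor of vasoactive intestinal peptide, stood at 297.4 and 121.8 in microglia and 1.335 and 2.558 in LPM (log2 fold 6.05 ± 0.71, adjusted p = 0.000295). The other receptor of that peptide, Vipr2, was lower, at 1.433 and 0 in microglia and 46.74 and 72.13 in LPM (log2 fold -5.24 ± 0.64), so the 2 populations differed in which receptor gene of the peptide they expressed. In SPRET/EiJ, though, the Vipr1 difference was -1.09 and that of Vipr2 -0.25 on the log2 scale.

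The genes of TGF-beta signalling differed member by member. TGF-beta is secreted bound to a latent complex, acts through the receptors Tgfbr1 and Tgfbr2 and induces its own inhibitors. Of 28 genes listed, 8 were higher in microglia and 4 lower (6 and 2 kept), with a median log2 fold of 0.89. On the side of the ligand, Tgfb2 stood at 15.77 and 9.366 in microglia and 5398 and 5694 in LPM (log2 fold -8.72 ± 0.52, adjusted p = 1.04e-05), and Ltbp1, given above, and the co-receptor Tgfbr3 (-6.30 ± 0.50) were lower as well. Tgfb1 was not called, at 3267 and 359 in microglia and 1791 and 449.1 in LPM (log2 fold 0.27 ± 0.71, adjusted p = 0.861). On the side of the response, the receptor gene Tgfbr1 stood at 12200 and 29550 in microglia and 827.9 and 974.5 in LPM (log2 fold 4.40 ± 0.43, adjusted p = 0.000105). Tgfbr2 was higher too (1.46 ± 0.36), a call lost without the polyA LPM library (adjusted p = 0.179), the depleted LPM library (adjusted p = 0.134) or the polyA microglia library (adjusted p = 0.096). The induced inhibitor Smad7 stood at 5270 and 2196 in microglia and 33.38 and 33.76 in LPM (log2 fold 6.62 ± 0.49, adjusted p = 2.19e-05). Pmepa1, another inhibitor, stood at 9949 and 3491 in microglia and 154.9 and 142.2 in LPM (log2 fold 5.30 ± 0.50, adjusted p = 7.73e-05). The co-repressor Skil stood at 3360 and 5651 in microglia and 267.1 and 210.8 in LPM (log2 fold 4.19 ± 0.36, adjusted p = 4.69e-05). Tgfbr1, Smad7, Pmepa1 and Skil were thus higher in both microglia libraries, and Tgfb2, Ltbp1 and Tgfbr3 in both LPM libraries. In the NOD/ShiLtJ and SPRET/EiJ pairs Tgfbr1 differed by 4.72 and 3.11, Smad7 by 4.56 and 5.19, and Tgfb2 by -7.97 and -6.49 on the log2 scale.

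Of the growth factors 3 of 29 tested were higher and 7 lower (2 and 4 kept). Pdgfb, a growth factor for pericytes and smooth muscle, stood at 5990 and 1584 in microglia and 56.08 and 28.65 in LPM (log2 fold 6.23 ± 0.59, adjusted p = 8.30e-05). Tgfa, a ligand of the epidermal growth factor receptor, stood at 1508 and 1016 in microglia and 6.009 and 13.3 in LPM (log2 fold 6.95 ± 1.02, adjusted p = 0.00107). Igf1, the insulin-like growth factor, stood at 30.1 and 6.244 in microglia and 1298 and 1038 in LPM (log2 fold -6.27 ± 0.45, adjusted p = 1.91e-05), and the bone morphogenetic protein gene Bmp2 had no read in microglia and 151.6 and 93.61 in LPM (at least 80.6-fold lower in microglia, taken against 3 reads over both microglia libraries). Its call was lost without the depleted LPM library (adjusted p = 0.0502) or the polyA microglia library (adjusted p = 0.0792). Wnt2, a developmental ligand, stood at 2.867 and 0 in microglia and 1257 and 1373 in LPM (log2 fold -9.38 ± 0.73). Of the factors given here Pdgfb and Tgfa were higher in microglia, and Wnt2, Tgfb2, Igf1 and Bmp2 in LPM. Of the receptors of cytokines and growth factors 12 of 33 tested were higher and 2 lower (4 and 0 kept). Csf1r, the receptor of colony stimulating factor 1 and IL-34, stood at 47920 and 18530 in microglia and 10490 and 6539 in LPM (log2 fold 1.85 ± 0.52, adjusted p = 0.035), a call lost without the polyA LPM library (adjusted p = 0.225), the depleted LPM library (adjusted p = 0.198) or the polyA microglia library (adjusted p = 0.132). Il21r, the receptor of interleukin 21, stood at 3184 and 1374 in microglia and 45.4 and 52.69 in LPM (log2 fold 5.39 ± 0.39, adjusted p = 1.92e-05). Il10ra, which takes up the signal of interleukin 10, stood at 9201 and 6418 in microglia and 1815 and 1407 in LPM (log2 fold 2.27 ± 0.31, adjusted p = 0.000729). For all 3 receptors the microglia libraries lay above the LPM libraries.

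Of the transcription factors of lineage and development 12 of 40 tested were higher and 7 lower (5 and 1 kept). Sall3, a paralog of Sall1, stood at 2147 and 1221 in microglia and 4.674 and 0 in LPM (log2 fold 9.41 ± 0.79, adjusted p = 4.09e-05). The myocyte enhancer factor gene Mef2c stood at 5220 and 14890 in microglia and 1138 and 1780 in LPM (log2 fold 2.63 ± 0.41, adjusted p = 0.00149). Irf8, an interferon regulatory factor needed for microglia, stood at 4988 and 2175 in microglia and 828.6 and 498.7 in LPM (log2 fold 2.35 ± 0.35, adjusted p = 0.00124). Each was higher in both microglia libraries. Of the retinoid genes more were lower than higher. Retinoic acid is made from retinal by Aldh1a enzymes, binds the receptors Rara, Rarb and Rarg, and is broken down by Cyp26 enzymes that it induces. Of 19 genes listed, 18 were tested and 1 was higher in microglia and 7 lower (0 and 5 kept), with a median log2 fold of -0.85. Rara stood at 7.884 and 54.64 in microglia and 1014 and 658.3 in LPM (log2 fold -5.20 ± 0.73, adjusted p = 0.00086). Rarb stood at 17.2 and 34.34 in microglia and 1315 and 2348 in LPM (log2 fold -6.12 ± 0.35, adjusted p = 8.04e-06). Rarg stood at 93.17 and 23.42 in microglia and 1366 and 748.4 in LPM (log2 fold -4.40 ± 0.64, adjusted p = 0.00101). All 3 receptors were lower in both microglia libraries. Cyp26a1, the breakdown enzyme, had no read in microglia and 75.45 and 98.22 in LPM (at least 60-fold lower in microglia), and the synthesis gene Aldh1a2 stood at 3.584 and 1.561 in microglia and 290.4 and 291.6 in LPM (log2 fold -6.41 ± 0.55). These 5 genes were higher in LPM. The 1 retinoid gene higher in microglia was Tgm2, a transglutaminase, at 654.4 and 273.2 in microglia and 75.45 and 68.03 in LPM (log2 fold 2.54 ± 0.46). Its call was lost without the polyA LPM library (adjusted p = 0.0721), the depleted LPM library (adjusted p = 0.0541) or the polyA microglia library (adjusted p = 0.0549). Of the nuclear receptors 2 of 25 tested were higher and 7 lower (1 and 5 kept). Those lower included the fatty acid sensor Pparg (-3.79 ± 0.45) and the thyroid hormone receptor Thrb (-3.52 ± 0.39), and the orphan receptor Nr6a1 was higher (2.99 ± 0.37).

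More lipid mediator genes were lower than higher in microglia. Of 27 genes listed, 3 were higher in microglia and 11 lower (2 and 8 kept), with a median log2 fold of -0.43. Ptgis, the prostacyclin synthase, stood at 7.884 and 0 in microglia and 4284 and 2459 in LPM (log2 fold -10.09 ± 0.70, adjusted p = 1.62e-05). Ptgir, the receptor of prostacyclin, stood at 0.717 and 1.561 in microglia and 387.9 and 202.1 in LPM (log2 fold -7.07 ± 0.57, adjusted p = 3.30e-05). The prostaglandin E synthase gene Ptges stood at 7.167 and 0 in microglia and 152.2 and 103.3 in LPM (log2 fold -5.47 ± 0.83, adjusted p = 0.00135), and its receptor genes Ptger4 and Ptger2 had log2 folds of -4.88 ± 0.60 and -3.84 ± 0.56. These 5 genes were lower in microglia. Hpgds, the hematopoietic prostaglandin D synthase, stood at 5366 and 5650 in microglia and 39.39 and 42.46 in LPM (log2 fold 7.04 ± 0.34, adjusted p = 5.31e-06). Hpgd, which inactivates prostaglandins, stood at 1971 and 2885 in microglia and 22.7 and 9.719 in LPM (log2 fold 7.23 ± 0.63, adjusted p = 5.15e-05). These went in the other direction, high in both microglia libraries. The inducible cyclooxygenase gene Ptgs2, upstream of all of these, was not called, at 25.09 and 32.78 in microglia and 12.69 and 0 in LPM (log2 fold 3.00 ± 1.43, adjusted p = 0.198).

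Genes for fatty acid uptake and storage were also more often lower than higher in microglia. Of 25 genes listed, 2 were higher in microglia and 11 lower (1 and 8 kept), with a median log2 fold of -0.29. The scavenger receptor and fatty acid transporter Cd36 stood at 21.5 and 10.93 in microglia and 6888 and 3935 in LPM (log2 fold -8.31 ± 0.37, adjusted p = 5.31e-06). The fatty acid binding protein gene Fabp4 stood at 4.3 and 0 in microglia and 3036 and 1194 in LPM (log2 fold -9.69 ± 0.70, adjusted p = 1.91e-05). Fabp7 and Fabp5, of the same family, had log2 folds of -7.08 ± 0.74 and -5.91 ± 0.47, and the lipid droplet coat Plin2 one of -3.45 ± 0.39. Lpl, which frees fatty acids from lipoproteins, stood at 248.7 and 28.1 in microglia and 7748 and 3386 in LPM (log2 fold -5.91 ± 0.76, adjusted p = 0.000493). These 6 genes were lower in microglia, while Mgll, given above, was higher. Apolipoproteins followed the same direction: Apoe stood at 1257 and 387.1 in microglia and 43070 and 24360 in LPM (log2 fold -5.53 ± 0.62, adjusted p = 0.000221), and Apoc1 had no read in microglia and 68.1 and 71.61 in LPM (at least 47.6-fold lower in microglia). Apoe differed by -1.75 in NOD/ShiLtJ and -2.90 in SPRET/EiJ. Of the genes of sterol efflux and apolipoproteins 1 of 20 tested was higher and 6 lower (1 and 5 kept). Of those of sterol synthesis and uptake 1 of 22 tested was higher and 4 lower (0 and 1 kept). The sterol exporters Abca1 and Abcg1 were not called, with log2 folds of 0.52 ± 0.51 and 0.96 ± 0.36. In fatty acid oxidation 2 of 23 tested were higher and 6 lower (0 and 3 kept), and in mitochondrial respiration 0 of 24 tested were higher and 4 lower (0 and 0 kept).

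Sugar and amino acid genes differed by isoform and transporter. Of 27 genes listed, 7 were higher in microglia and 6 lower (4 and 3 kept), with a median log2 fold of -0.78. The fructose transporter gene Slc2a5 stood at 3776 and 1318 in microglia and 12.69 and 4.604 in LPM (log2 fold 7.99 ± 0.84, adjusted p = 0.000148). The glucose transporter gene Slc2a1 stood at 766.2 and 649.4 in microglia and 96.81 and 101.3 in LPM (log2 fold 2.82 ± 0.31, adjusted p = 0.000193). Slc2a6, of the same family, stood at 27.23 and 12.49 in microglia and 627.6 and 446.1 in LPM (log2 fold -4.76 ± 0.44, adjusted p = 6.83e-05). The first 2 were high in microglia and Slc2a6 in LPM. Hexokinase gene Hk2 was higher in microglia (2.86 ± 0.36), and the phosphofructokinase gene Pfkp lower (-4.37 ± 0.31). The lactate dehydrogenase subunits went in opposite directions, with Ldhb at 1145 and 558.9 in microglia and 36.72 and 24.04 in LPM (log2 fold 4.70 ± 0.41, adjusted p = 4.97e-05). Ldha stood at 325.4 and 165.5 in microglia and 1586 and 962.2 in LPM (log2 fold -2.41 ± 0.34, adjusted p = 0.000898). The Ldhb difference was not shared by SPRET/EiJ, where it was -0.66, against 2.21 in NOD/ShiLtJ. Of the amino acid genes 6 of 24 tested were higher and 5 lower (1 and 2 kept). Slc7a2, the cationic amino acid transporter that carries arginine, stood at 11.47 and 3.122 in microglia and 2445 and 3063 in LPM (log2 fold -8.58 ± 0.62, adjusted p = 1.87e-05). Arg1, which breaks arginine down, stood at 28.67 and 28.1 in microglia and 2410 and 2629 in LPM (log2 fold -6.42 ± 0.34, adjusted p = 6.25e-06). Both genes of arginine handling were low in both microglia libraries. Of the iron and heme genes 3 of 25 tested were higher and 7 lower (1 and 3 kept). Slc40a1, ferroportin, the exporter of iron, stood at 778.3 and 1538 in microglia and 10.68 and 1.535 in LPM (log2 fold 7.65 ± 0.87, adjusted p = 0.000243). Cd163, the receptor for haemoglobin and haptoglobin, stood at 15.77 and 10.93 in microglia and 1261 and 1064 in LPM (log2 fold -6.36 ± 0.37, adjusted p = 8.69e-06). The exporter gene was thus higher in microglia and the haemoglobin receptor gene lower.

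Clotting genes were lower in microglia in the largest share of the 40 function lists after cell cycle (55.6% against 57.1%). Of 27 genes listed, 3 were higher in microglia and 15 lower (1 and 14 kept), with a median log2 fold of -3.10. The genes of factor V, F5, factor X, F10, and factor VII, F7, are best known from liver. F5 stood at 77.4 and 7.805 in microglia and 34910 and 15060 in LPM (log2 fold -9.77 ± 0.86, adjusted p = 5.15e-05). F10 stood at 8.6 and 0 in microglia and 3734 and 2262 in LPM (log2 fold -9.87 ± 0.75, adjusted p = 2.36e-05). F7 stood at 2.867 and 0 in microglia and 1556 and 698.8 in LPM (log2 fold -9.05 ± 0.58, adjusted p = 1.11e-05). All 3 were high in both LPM libraries and low in both microglia libraries. Thbd, thrombomodulin, which turns thrombin to an anticoagulant role, stood at 0.717 and 1.561 in microglia and 289.8 and 304.4 in LPM (log2 fold -7.15 ± 0.39, adjusted p = 6.88e-06). The plasminogen activator inhibitor Serpinb2 stood at 15.05 and 0 in microglia and 9485 and 6610 in LPM (log2 fold -10.95 ± 1.20, adjusted p = 0.000188). These 5 genes were lower in microglia, while the thrombin inhibitor Serpine2, given above, was higher. The urokinase receptor gene Plaur was lower too (-4.06 ± 0.44), and F13a1, the clot-stabilising transglutaminase, had a log2 fold of -6.57 ± 0.54. Tissue factor, F3, was not called, at 25.09 and 12.49 in microglia and 24.7 and 16.88 in LPM. Of the 15 lower genes, 14 were past log2 1 the same way in both other strains.

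Complement genes were also more often lower than higher. Of 24 genes listed, 21 were tested and 1 was higher in microglia and 9 lower (0 and 7 kept), with a median log2 fold of -1.30. C3, the central component, stood at 32.97 and 6.244 in microglia and 2173 and 892.1 in LPM (log2 fold -6.47 ± 0.73, adjusted p = 0.000225). C4b stood at 64.5 and 9.366 in microglia and 28320 and 17480 in LPM (log2 fold -9.74 ± 0.84, adjusted p = 4.75e-05). Cfb, which forms the convertase of the alternative pathway, stood at 35.84 and 9.366 in microglia and 1453 and 954.5 in LPM (log2 fold -5.92 ± 0.60, adjusted p = 0.000127). Each was high in both LPM libraries. Properdin, Cfp, which stabilises that convertase, was lower too (-8.80 ± 0.64), and so was Vsig4, a receptor for C3 fragments (-10.51 ± 0.72). The C1q genes did not follow: C1qa stood at 22300 and 8402 in microglia and 10420 and 6261 in LPM (log2 fold 0.76 ± 0.47, adjusted p = 0.34). C1qb stood at 18540 and 6558 in microglia and 13420 and 6975 in LPM and C1qc at 15460 and 6375 in microglia and 13880 and 7063 in LPM, and none was called.

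**Figure D3:**
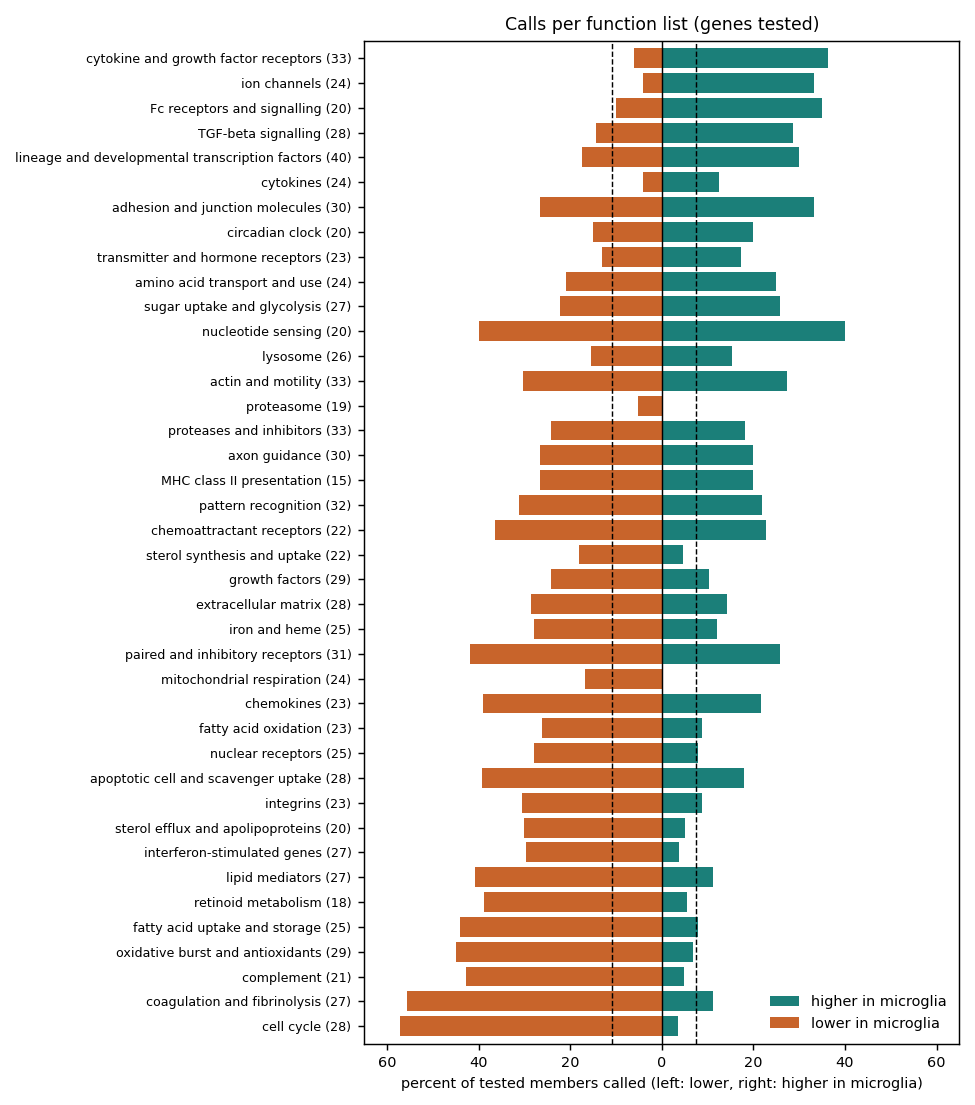
Share of the tested members of each of the 40 function lists called higher in microglia (bars to the right, percent) and lower (bars to the left, percent). Dashed lines mark the shares over all 19313 genes tested, 7.54% higher and 10.8% lower.

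Different uptake receptors were high in each population. Of 28 genes listed, 5 were higher in microglia and 11 lower (4 and 9 kept), with a median log2 fold of -0.90. Timd4, a receptor for phosphatidylserine on apoptotic cells, stood at 9.317 and 1.561 in microglia and 4732 and 4987 in LPM (log2 fold -9.88 ± 0.58, adjusted p = 1.02e-05). The scavenger receptor Marco stood at 7.167 and 0 in microglia and 1565 and 527.9 in LPM (log2 fold -8.31 ± 0.69, adjusted p = 3.74e-05). Msr1, another, stood at 60.92 and 26.54 in microglia and 13200 and 11810 in LPM (log2 fold -8.24 ± 0.53, adjusted p = 1.11e-05). All were low in microglia. Mertk, the kinase receptor that binds apoptotic cells through the bridging protein Gas6, stood at 23900 and 12090 in microglia and 3366 and 2924 in LPM (log2 fold 2.44 ± 0.36, adjusted p = 0.00116). Gas6 stood at 1191 and 460.5 in microglia and 29.38 and 13.81 in LPM (log2 fold 5.13 ± 0.40, adjusted p = 2.61e-05). Axl, a relative of Mertk, stood at 82.42 and 32.78 in microglia and 330.5 and 218.4 in LPM (log2 fold -2.35 ± 0.38, adjusted p = 0.00187). Mertk and its ligand were thus high in microglia and Axl in LPM. Itgb5, which forms an integrin with Itgav that binds such bridges, stood at 23700 and 8814 in microglia and 76.78 and 27.62 in LPM (log2 fold 8.26 ± 0.41, adjusted p = 5.31e-06), and Itgav was not called (log2 fold 1.02 ± 0.32, adjusted p = 0.0563).

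Receptors for microbial patterns, antibodies and inhibitory signals were divided. Of 32 genes listed, 7 were higher in microglia and 10 lower (2 and 8 kept), with a median log2 fold of -0.45. Tlr12 stood at 451.5 and 115.5 in microglia and 0.668 and 1.535 in LPM (log2 fold 6.80 ± 0.86, adjusted p = 0.000437). The DNA sensor Tlr9 stood at 511.7 and 170.2 in microglia and 18.7 and 13.3 in LPM (log2 fold 4.14 ± 0.65), and its call was lost without the polyA LPM library (adjusted p = 0.0578) or the polyA microglia library (adjusted p = 0.0633). The RNA sensor Tlr3 stood at 440.8 and 407.4 in microglia and 183.6 and 89.01 in LPM (log2 fold 1.72 ± 0.36), and its call was lost without the depleted LPM library (adjusted p = 0.128) or the depleted microglia library (adjusted p = 0.0537). Tlr8 stood at 9.317 and 0 in microglia and 655.6 and 540.2 in LPM (log2 fold -7.54 ± 0.79, adjusted p = 0.000147), and the fungal receptors Clec4e and Clec4d had log2 folds of -6.34 ± 0.60 and -7.74 ± 0.44. The sensor of bacterial proteins Naip1 (-7.43 ± 0.59) and Nlrc4, its inflammasome partner (-5.34 ± 0.58), were lower together, and Nlrp3, of another inflammasome, was higher (2.58 ± 0.36). Tlr2, Tlr4 and Cd14, which recognise bacterial lipopeptide and lipopolysaccharide, were not called (log2 folds 0.61 ± 0.37, -0.33 ± 0.54 and -0.37 ± 0.32). Of the genes named Clec 1 of 30 tested was higher and 12 lower (1 and 7 kept). Of the Fc receptors and their signalling genes 7 of 20 tested were higher and 2 lower (4 and 2 kept). Fcgr1, the high-affinity receptor of IgG, stood at 1916 and 981.9 in microglia and 261.7 and 206.1 in LPM (log2 fold 2.56 ± 0.31, adjusted p = 0.000351). The adaptor Blnk stood at 6190 and 3464 in microglia and 395.9 and 270.1 in LPM (log2 fold 3.82 ± 0.38, adjusted p = 0.000116). Vav3, an exchange factor downstream of such receptors, was lower, at 22.22 and 24.98 in microglia and 3496 and 7162 in LPM (log2 fold -7.67 ± 0.35, adjusted p = 5.31e-06), so receptor and adaptor went one way and this exchange factor the other. Of the paired and inhibitory receptors 8 of 31 tested were higher and 13 lower (5 and 9 kept). Trem2, a lipid receptor linked to Alzheimer disease, stood at 7025 and 2894 in microglia and 263.7 and 147.8 in LPM (log2 fold 4.51 ± 0.31, adjusted p = 1.62e-05). Lair1, a collagen receptor, stood at 5914 and 6619 in microglia and 516.1 and 386.7 in LPM (log2 fold 3.81 ± 0.32, adjusted p = 3.78e-05). Pirb and Lilrb4 were lower (-4.01 ± 0.41 and -4.51 ± 0.36), as were Cd300lb (-7.18 ± 0.56) and Cd300ld (-7.15 ± 0.66), and members of these clusters share sequence that could split reads. The MHC class II gene H2-Ab1 was lower (log2 fold -2.72 ± 0.42, adjusted p = 0.00148), and in its list 3 of 15 tested were higher and 4 lower (1 and 2 kept).

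Chemokines and their receptors also differed member by member. Of 23 genes listed, 5 were higher in microglia and 9 lower (3 and 6 kept), with a median log2 fold of -1.09. Ccl3 stood at 3988 and 1166 in microglia and 40.06 and 11.25 in LPM (log2 fold 6.59 ± 0.68, adjusted p = 0.000142). Ccl4 stood at 4060 and 1908 in microglia and 24.7 and 1.535 in LPM (log2 fold 8.43 ± 0.75, adjusted p = 5.53e-05). Ccl2 stood at 893 and 507.3 in microglia and 24.04 and 20.46 in LPM (log2 fold 4.86 ± 0.58, adjusted p = 0.000333). These attractants of monocytes and T cells were high in both microglia libraries. Cxcl13, which attracts B cells, stood at 5.017 and 0 in microglia and 4537 and 1022 in LPM (log2 fold -9.78 ± 0.63, adjusted p = 1.12e-05). Pf4, platelet factor 4, stood at 16.48 and 3.122 in microglia and 8360 and 3487 in LPM (log2 fold -9.31 ± 0.63, adjusted p = 1.43e-05). Ccl24, which attracts eosinophils, stood at 13.62 and 6.244 in microglia and 1167 and 775 in LPM (log2 fold -6.53 ± 0.67, adjusted p = 0.000134). These 3 were high in both LPM libraries. Ccr1, a receptor of Ccl3, was lower in microglia (log2 fold -5.78 ± 0.36, adjusted p = 1.11e-05). The receptor of the neuronal chemokine fractalkine, Cx3cr1, stood at 28240 and 13610 in microglia and 65.43 and 43.99 in LPM (log2 fold 8.49 ± 0.61, adjusted p = 1.81e-05). Of the chemoattractant receptors 5 of 22 tested were higher and 8 lower (4 and 5 kept). Of the cytokine genes 3 of 24 tested were higher and 1 lower (1 and 1 kept). Il1a, which encodes interleukin 1 alpha, stood at 2631 and 2771 in microglia and 134.9 and 103.3 in LPM (log2 fold 4.50 ± 0.36, adjusted p = 3.06e-05), and Tnfsf13, the B cell factor APRIL, was the 1 that was lower (log2 fold -4.28 ± 0.46, adjusted p = 0.000164).

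Adhesion and matrix genes were high in each population for different members. Of the integrins 2 of 23 tested were higher and 7 lower (1 and 3 kept). Itga4 stood at 45.15 and 51.52 in microglia and 7747 and 6566 in LPM (log2 fold -7.18 ± 0.42, adjusted p = 1.02e-05). Itga6, a laminin receptor subunit, stood at 3445 and 3547 in microglia and 30900 and 21720 in LPM (log2 fold -2.89 ± 0.38, adjusted p = 0.0006). Of the adhesion and junction genes 10 of 30 tested were higher and 8 lower (4 and 7 kept). Selp, P-selectin, stood at 13.62 and 0 in microglia and 8167 and 4728 in LPM (log2 fold -10.67 ± 1.02, adjusted p = 8.81e-05). Icam2 stood at 27.95 and 1.561 in microglia and 4266 and 2316 in LPM (log2 fold -8.51 ± 0.87, adjusted p = 0.000129). Both serve contact with leukocytes and vessel walls and were low in both microglia libraries. Gpr56 stood at 6189 and 986.6 in microglia and 8.68 and 5.627 in LPM (log2 fold 8.27 ± 1.09, adjusted p = 0.00056). Cadm1, a synaptic adhesion gene, stood at 4077 and 4360 in microglia and 44.73 and 57.8 in LPM (log2 fold 6.34 ± 0.40, adjusted p = 1.11e-05). Cd34 stood at 841.4 and 710.3 in microglia and 3.338 and 6.65 in LPM (log2 fold 7.07 ± 0.60, adjusted p = 4.08e-05). These were high in microglia. Of the matrix genes 4 of 28 tested were higher and 8 lower (4 and 4 kept). Sparc stood at 14280 and 4579 in microglia and 36.72 and 21.48 in LPM (log2 fold 8.12 ± 0.56, adjusted p = 1.50e-05). Col27a1 stood at 7123 and 2655 in microglia and 70.11 and 80.82 in LPM (log2 fold 5.83 ± 0.63, adjusted p = 0.000181). Thbs1, thrombospondin, which was high in LPM, stood at 163.4 and 129.6 in microglia and 49220 and 36080 in LPM (log2 fold -8.17 ± 0.44, adjusted p = 6.34e-06). Of the guidance genes 6 of 30 tested were higher and 8 lower (1 and 2 kept), with the semaphorin gene Sema4d higher (4.76 ± 0.49) and the ephrin gene Efnb2 lower (-4.96 ± 0.40). Of the actin and motility genes 9 of 33 tested were higher and 10 lower (8 and 6 kept), with Arhgap22 (8.42 ± 0.41) and Marcks (4.33 ± 0.32) higher and Rnd3 (-6.48 ± 0.48) and Vcl (-2.48 ± 0.36) lower. Of the proteases and inhibitors 6 of 33 tested were higher and 8 lower (2 and 4 kept). Of the cathepsins, Ctsf was higher (2.52 ± 0.39), and Ctsb and Ctsl were not called (-0.56 ± 0.70 and 1.38 ± 0.69). Of the lysosome genes 4 of 26 tested were higher and 4 lower (0 and 0 kept), and of the proteasome genes 0 of 19 tested were higher and 1 lower (0 and 0 kept).

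Genes of cell division, interferon response and oxidant defence were more often lower than higher in microglia. In cell division, of 28 genes listed, 1 was higher in microglia and 16 lower (0 and 8 kept), with a median log2 fold of -3.12. Mki67 stood at 30.82 and 40.59 in microglia and 1707 and 1089 in LPM (log2 fold -5.23 ± 0.68, adjusted p = 0.000523). Mcm5, of the replicative helicase, stood at 41.57 and 40.59 in microglia and 431.3 and 317.7 in LPM (log2 fold -3.14 ± 0.34, adjusted p = 0.000184), and the ribonucleotide reductase gene Rrm2 had no read in microglia and 185.6 and 96.68 in LPM (at least 91.8-fold lower in microglia). Both microglia libraries lay below both LPM libraries for all 3. Of the interferon-stimulated genes 1 of 27 tested was higher and 8 lower (0 and 5 kept), led by Ifi203 at 17.92 and 4.683 in microglia and 1109 and 616.9 in LPM (log2 fold -6.32 ± 0.66, adjusted p = 0.000148). Oas2 stood at 26.52 and 14.05 in microglia and 851.9 and 443.5 in LPM (log2 fold -4.92 ± 0.63, adjusted p = 0.000497). Of the Schlafen genes 0 of 11 tested were higher and 7 lower (0 and 4 kept), with Slfn4 at 17.2 and 9.366 in microglia and 3716 and 2672 in LPM (log2 fold -7.84 ± 0.63, adjusted p = 3.06e-05). Of the genes of the oxidative burst and antioxidants 2 of 29 tested were higher and 13 lower (0 and 4 kept). Cybb, the catalytic subunit of the phagocyte NADPH oxidase, stood at 162.7 and 31.22 in microglia and 25530 and 13860 in LPM (log2 fold -8.02 ± 0.64, adjusted p = 3.06e-05), and its partner Cyba was not called (-0.98 ± 0.37). Mgst1, a glutathione transferase, stood at 5.017 and 0 in microglia and 1058 and 804.6 in LPM (log2 fold -8.56 ± 0.63, adjusted p = 2.07e-05). Gsr, which restores glutathione, stood at 220 and 162.4 in microglia and 2283 and 2097 in LPM (log2 fold -3.53 ± 0.29, adjusted p = 3.74e-05). The oxidase subunit and the glutathione genes were thus lower together.

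Immediate early and heat shock genes were high in both C57BL6/J microglia libraries, and most of them did not show this in the other strains, a difference that was not tested. Immediate early genes respond within minutes to a stimulus, handling of cells included. Of 20 genes listed, 16 were higher in microglia and 1 lower (12 and 0 kept), with a median log2 fold of 3.28, and their summed level was 222000 and 76970 in microglia and 17780 and 8664 in LPM. Fos stood at 23040 and 6483 in microglia and 452.7 and 208.7 in LPM (log2 fold 5.31 ± 0.35, adjusted p = 1.19e-05). Egr1 stood at 28980 and 4024 in microglia and 239 and 73.15 in LPM (log2 fold 6.34 ± 0.69, adjusted p = 0.000189). Atf3 stood at 19660 and 13250 in microglia and 271.7 and 200 in LPM (log2 fold 6.11 ± 0.33, adjusted p = 6.93e-06). Each microglia value was above each LPM value. For heat shock and chaperones, of 18 genes listed, 11 were higher in microglia and 0 lower (8 and 0 kept), with a median log2 fold of 2.45. Hspa1a, an inducible member, stood at 9620 and 4332 in microglia and 188.9 and 31.71 in LPM (log2 fold 6.36 ± 0.74, adjusted p = 0.000273). Taken as a median over the immediate early list, the log2 difference was 3.45 and 2.85 in the polyA and depleted pairs of C57BL6/J. It was 0.60 in the NOD/ShiLtJ pair and -1.49 in the SPRET/EiJ pair. For the heat shock list it was 2.13 and 2.95 in the same order, and 0.07 and -0.02 in the NOD/ShiLtJ pair and the SPRET/EiJ pair. Of the 16 immediate early genes called higher, 2 were past log2 1 the same way in both other strains, and of the 11 heat shock genes with a value there 0, against 58.8% of all genes called higher. The strain libraries stand in a table of their own, so strain and table cannot be told apart. Of the inflammatory genes given above, Ccl3, Ccl4 and Ccl2 differed by 1.05, 3.39 and 2.98 in NOD/ShiLtJ and by 2.52, 5.55 and -0.15 in SPRET/EiJ. The part of the immediate early response in these chemokine genes was not tested. The phosphatases of MAP kinases, many of them induced the same way, made a list in which 8 of 22 tested were higher and 3 lower (4 and 1 kept). Of the circadian clock genes 4 of 20 tested were higher and 3 lower (3 and 1 kept). The transcription factor gene Hlf stood at 283.1 and 217 in microglia and 0 and 2.046 in LPM (log2 fold 7.16 ± 0.86, adjusted p = 0.000342). Bhlhe40, a repressor in the clock, stood at 6.45 and 3.122 in microglia and 2194 and 1035 in LPM (log2 fold -8.09 ± 0.55, adjusted p = 1.49e-05). Over the whole clock list the median difference was positive in both C57BL6/J pairs. It was -0.52 in NOD/ShiLtJ and only -0.09 in SPRET/EiJ.

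**Figure D4:**
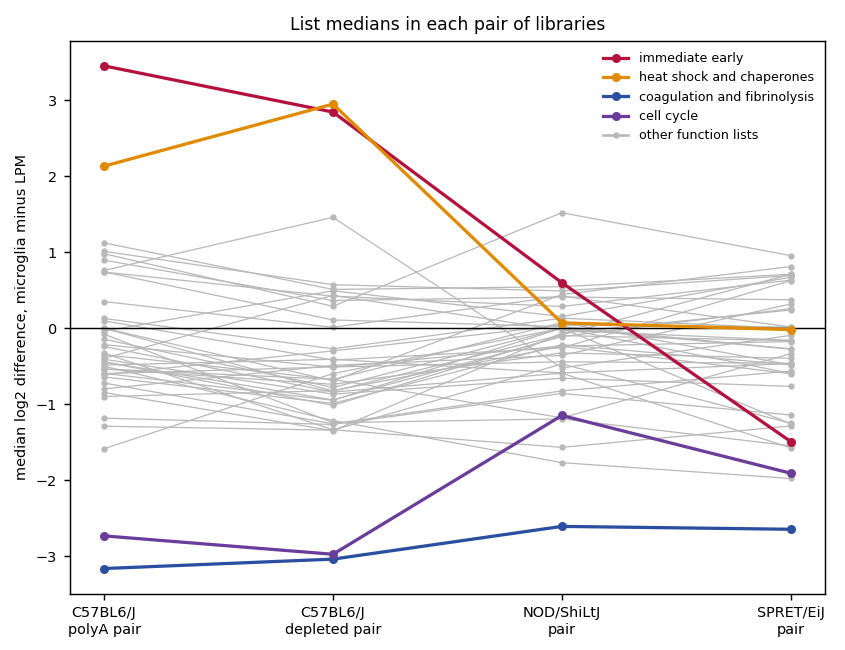
Median log2 difference, microglia minus LPM, of each function and technical list in the C57BL6/J polyA pair, the C57BL6/J depleted pair, the NOD/ShiLtJ pair and the SPRET/EiJ pair (1 library each side per pair). The immediate early and heat shock lists, in colour, lie above 2 in both C57BL6/J pairs and between -1.49 and 0.60 in the other pairs, and the coagulation and cell cycle lists lie below 0 in all 4.

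The differences in RNA were set beside histone marks and PU.1 at the same genes, measured in 1 ChIP library per population, which the choice of genes did not use. The H3K27ac mark lies at active promoters and enhancers. The authors listed 15091 H3K27ac regions in microglia and 24422 in LPM, so shares are higher in LPM to begin with. Of the genes higher in microglia, 16.3% had an H3K27ac region within 1 kb of the transcript start in microglia alone and 5.35% in LPM alone. Of the genes lower in microglia, 1.06% had one in microglia alone and 42.8% in LPM alone, and of genes not called 2.24% and 16.4%. The mark in 1 population alone thus went more often with the population of higher RNA than against it. Of the genes named above as higher in microglia, Fos, Fosb, Hspa1a, Ccl2 and S100a8 had the mark in LPM alone. The mark was carried in both populations by 36% of higher and 20.4% of lower genes, against 29.9% of genes not called. H3K4me2, which marks promoters more broadly, was present in both populations at 76.6% of higher and 75.3% of lower genes, against 67% of genes not called. PU.1 peaks stood in microglia alone at 8.58% of higher genes and in LPM alone at 10.02%, and at 2.83% and 24.4% of lower genes, beside 4.06% and 13.5% of genes not called. The PU.1 list was longer in LPM, with 44869 peaks in microglia and 65261 in LPM. Among the higher-scoring peaks of each list the shares of higher genes were 7.55% in microglia alone and 2.2% in LPM alone. They were 2.16% and 14.7% for lower genes, and 4.25% and 4.93% for genes not called. In a narrower window around the start, with all peaks, higher genes had shares of 6.52% in microglia alone and 7.34% in LPM alone. Lower genes had 2.98% and 16.19% there, and genes not called 3.99% and 10.04%. Which of the 2 shares was larger for higher genes thus depended on the peaks counted. With 1 library per mark there is no test. Sall1 and Siglech had H3K27ac and PU.1 in microglia alone, and Gata6 had both in LPM alone. Alox15 had H3K27ac in LPM alone and no PU.1 peak within 1 kb in either population.

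**Figure D5:**
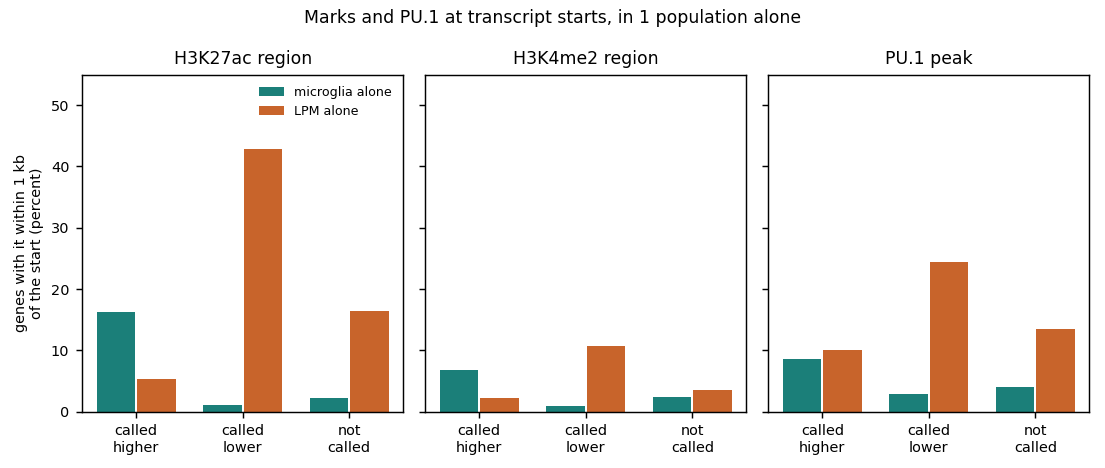
Percent of genes called higher in microglia, called lower and not called that had an H3K27ac region, an H3K4me2 region or a PU.1 peak within 1 kb of the transcript start in microglia alone (left bar of each pair) or in LPM alone (right bar). H3K27ac in LPM alone stands at 42.8% of lower genes and 5.35% of higher genes.

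The promoters below belong to genes whose H3K27ac region lay in the population of higher RNA alone and whose sequence holds the PU.1 box GAGGAAGT on either strand. They are the 2 of largest fold each way among listed genes. They run from 250 bases before the transcript start to 50 after it, are from RefSeq (GRCm38.p6) and are written 5′ to 3′ on the strand of the gene, with the box in capitals. Slco2b1, an organic anion transporter gene with 17560 and 8136 in microglia and 37.39 and 26.09 in LPM, chr7:99711291-99711590, minus strand, has the box at position 7 from the start:
Slco2b1: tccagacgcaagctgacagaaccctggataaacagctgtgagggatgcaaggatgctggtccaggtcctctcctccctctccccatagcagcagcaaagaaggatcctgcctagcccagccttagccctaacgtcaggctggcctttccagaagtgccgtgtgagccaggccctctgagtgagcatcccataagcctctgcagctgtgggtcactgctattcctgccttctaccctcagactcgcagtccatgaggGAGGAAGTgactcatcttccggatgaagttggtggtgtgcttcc
Hpgds, chr6:65144681-65144980, minus strand, has it at position -49:
Hpgds: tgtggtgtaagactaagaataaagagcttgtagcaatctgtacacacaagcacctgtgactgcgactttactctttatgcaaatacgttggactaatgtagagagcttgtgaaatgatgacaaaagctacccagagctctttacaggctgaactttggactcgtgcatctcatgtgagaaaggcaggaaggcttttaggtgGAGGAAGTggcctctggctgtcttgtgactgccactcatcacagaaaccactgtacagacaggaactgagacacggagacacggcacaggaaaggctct
Pf4, chr5:90772185-90772484, plus strand, has it on the other strand, read as ACTTCCTC, at position -10:
Pf4: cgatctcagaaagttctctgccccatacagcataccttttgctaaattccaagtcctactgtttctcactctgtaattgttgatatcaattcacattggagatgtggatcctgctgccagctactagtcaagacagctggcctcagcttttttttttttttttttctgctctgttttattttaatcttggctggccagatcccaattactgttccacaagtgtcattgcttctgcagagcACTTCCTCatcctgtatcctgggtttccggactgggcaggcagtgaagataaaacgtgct
Cd300ld, chr11:114989837-114990136, minus strand, has it at position -143:
Cd300ld: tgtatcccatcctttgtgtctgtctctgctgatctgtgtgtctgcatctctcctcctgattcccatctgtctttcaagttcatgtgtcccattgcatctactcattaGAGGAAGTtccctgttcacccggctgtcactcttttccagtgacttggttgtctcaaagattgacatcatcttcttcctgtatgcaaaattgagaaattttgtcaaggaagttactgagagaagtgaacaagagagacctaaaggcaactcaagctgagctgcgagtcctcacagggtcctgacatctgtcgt
A PU.1 peak lay within 1 kb of the start in both populations at Slco2b1, Hpgds and Pf4, and in LPM alone at Cd300ld. The box is found in 3.2% of the 32851 promoters of the RefSeq table, in 4.5% of 845 matched promoters of higher genes, 4.24% of 1204 of lower genes and 2.97% of 9067 of genes not called. A match describes the letters only.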

How the data were processed

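RNA from 10 untreated C57BL6/J libraries was used: microglia, LPM and 3 other macrophage populations, 2 libraries each, 1 per table. The authors deposited the signal as reads per transcript scaled to 10000000 mapped reads, per the file headers, and the transcript length listed equals the whole span in 99.5% of rows. STAR, Bowtie, HOMER and mm10 are named in the submitters' processing notes, with versions not given in the sources used here, and neither is the strand. The deposited score of each ChIP region was used only to take the upper part of a list, and the regions were taken as the authors listed them, per sample.

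The row of greatest length was kept per symbol (24063 symbols). The low values came out as whole reads in 100% of cases within a tolerance of 0.1 read, and depth was derived from them (6410000 to 19500000 mapped reads in the microglia and LPM libraries). Genes with a value of at least 1 in 1 of the 10 libraries were tested by limma 3.58.1 in R 4.3.3, with an intensity trend, on log2(value + 1) with the table as block, as microglia minus LPM with p-values adjusted over all genes. The count test was edgeR 4.0.16 on the recovered reads, as an alternative. Both fits were first run on simulated data with the same spread setting for all genes, as a check of the code and not of the error rate in these data. A gene without reads in a population has a fold bounded by 3 reads over its 2 libraries, which covers counting error only. The same-numbered pairing of the replicate block is only the shared table. For the BMDM library not labelled polyA, the labels do not give the RNA selection. The block may therefore not stand for RNA selection in that library. The BMDM and TGEM replicates differ in their sex-linked genes, without a term for it. The strain table lists 0 for all 1095 symbols on X and Y, which were left out of strain comparisons. A promoter was given a mark where a region overlapped the 1 kb on either side of the start.

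Members and lists were chosen with earlier results of these data known. Named were the 4 markers, the 15 genes of largest fold each way outside the marker lists that kept their calls, with a mean of at least 50 in the higher population, the called members of each list by fold (up to 6 each way, 3 in a family), and uncalled members needed for their role. Adk, Axl, Csf1r, F13a1, Irf8, Mcm5, Mef2c, Pirb, Plaur, Plin2, Ptger2, Ptger4, Tgfbr2, Thbd and Vcl fall outside this and were chosen after their values were seen. Alternatives were other pseudocounts, filters, scalings, count tests, fits and rows, and each library left out. Some genes are not reported here.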

Additional observations from a re-analysis of the deposited data

Results flagged for a closer look

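Fos was higher in both C57BL6/J microglia libraries (log2 fold 5.31 ± 0.35). Its log2 differences were -0.18 in NOD/ShiLtJ and -1.80 in SPRET/EiJ, both of the opposite sign but small in NOD/ShiLtJ. The median of the circadian clock list was positive in both C57BL6/J pairs (0.76 and 1.46), -0.52 in NOD/ShiLtJ and -0.09 in SPRET/EiJ. With 1 library a side per strain, neither difference was tested. Of 3414 called genes with a strain value, 71 (2.08%) were opposite in sign in both other pairs, counted whatever the size of the difference. Among these 71 were 5 of 17 called immediate early genes (Dusp1, Fos, Ier2, Klf6 and Nr4a1) and 3 of 11 called heat shock genes (Bag3, Dnaja1 and Hspa5). Past log2 1 the other way in both pairs were only 4 higher and 5 lower genes.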

How the results depend on the processing

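Both counts of called genes stayed within 1.5 times under other pseudocounts, filters, scalings, edgeR, a fit of the 4 libraries alone and the row of highest mean. Without the replicate block they were 1289 higher and 1827 lower, and Csf1r was the 1 named gene that lost its call, as it also did with a pseudocount of 5, quantile normalization and the 4-library fit. Of 154 counts of higher or lower members of a list, 44 moved past 1.5 times without the filter, 29 in the 4-library fit, 0 to 13 under other pseudocounts, the stricter filter, quantile normalization, edgeR and no block, and 46 to 85 without 1 microglia or LPM library. Calls were gained by Csf3r and P2rx7 under both edgeR scalings, in the 4-library fit and without either TGEM library; by Itgav with RLE, the stricter filter and without either TGEM library; and by Ctsl and Ptgs2 in the 4-library fit. Without a filter on low values Bmp2, Csf1r, Kcna3, Kcnn3 and S100a8 lost theirs. Leaving out a library of another population of the fit also lost calls. Csf1r lost its call without either BMDM library or either SPM library, Tgfbr2 without either SPM library, and S100a8 without the polyA TGEM library. With quantile normalization 49.5% of calls were higher, against 41.2% as reported, and with size factors by RLE 50.7%. Quantile normalization also shifted the median of the better expressed genes to -0.0044 (log2), against -0.15 as reported, and edgeR with TMM on the recovered reads called 1796 genes higher and 2039 lower. Leaving out 1 library gave 551 to 1590 higher and 824 to 2170 lower genes, with 7 to 14 function lists holding more higher and 20 to 32 more lower members (11 and 27 as reported). Without the polyA microglia library 7 lists held more higher members. With a pseudocount of 5, chosen after seeing the data, 53.8% of higher and 52.5% of lower genes held in both strains. In the higher-scoring part of each H3K27ac list, higher genes had the mark in microglia alone in 18.7% and in LPM alone in 2.88%, lower genes in 0.144% and 34.9%, and genes not called in 1.312% and 13.4%. In a narrower window around the start, genes not called had it in 1.97% and 17.2%. The cause of these shifts was not tested.

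Among the uncalled genes named, these changed sign. Quantile normalization gave log2 folds of -0.048 for C1qb, -0.31 for C1qc and 0.15 for F3. RLE size factors gave 0.068 for F3 and 0.11 for Tlr4, and TMM 0.012 for Tlr4. Over the fits that left out 1 library, the range was -0.14 to 0.52 for C1qb, -0.21 to 0.22 for C1qc, -0.89 to 0.51 for F3, -0.71 to 1.25 for Tgfb1 and -1.28 to 0.62 for Tlr4. Values at or near 1 read, 0.5115 to 1.561 in these libraries, limit the folds of genes near 0.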
